A study of Mus musculus with 12 samples.

Results

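Sox9, Hmga1, Hmga2, Igf2bp2 and Pitx1 were followed in the tumour cells of 6 mouse mammary tumours, per tumour and per single cell. They are regulators with roles in development that have also been studied in tumours. The 5 genes were chosen by name with their measured levels in these tumour cells already in view, so their levels below are a description and carry no test. The counts used here hold 4 of the 5, among 19369 genes. They have no entry for Hmga1, which was therefore not analysed, and nothing is known here of its level. The cells were those that the authors annotated as tumour, 19337 of 58975 cells kept after doublets, droplets holding more than 1 cell, had been left out of 60657.

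The tumours came from 4T1, a triple-negative mammary carcinoma line of BALB/c mice. Cells were implanted in the mammary fat pad of female BALB/c hosts, 9 to 11 weeks old per the labels. The groups were 5 clones, each grown from a single cell and named M, E, EM1, EM2 and EM3, and the uncloned parental line. Each group was 1 tumour, so a value belongs to that tumour as much as to its clone, and clone and tumour cannot be told apart. The labels name no treatment and no engineered allele in any group. The series asks how epithelial and mesenchymal states of tumour cells go with the immune cells around them. The labels do not give the state of each clone. In these tumour cells the epithelial adhesion gene Cdh1 stood at 746 CPM in Clone E, 51.8 in the parental tumour, 25.9 in EM1, 24.2 in EM2, 4.15 in M and 3.07 in EM3. CPM is a gene's count of unique molecular identifiers (UMIs, each marking 1 captured RNA molecule) per 1000000 UMIs summed over the same cells.

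SOX9 is a transcription factor with an HMG-box DNA-binding domain that directs cartilage and testis formation and maintains progenitor cells in several epithelia, the mammary gland among them. HMGA2 is a small chromatin protein that bends AT-rich DNA through its AT-hooks. It is abundant in the embryo and nearly silent in most adult tissues, where microRNAs of the let-7 family repress it through sites in its 3′ untranslated region (UTR). HMGA1 is its close relative. IGF2BP2 binds messenger RNAs, Igf2 among them, and its gene is a known transcriptional target of HMGA2. LIN28A and LIN28B, RNA-binding proteins of the embryo, block the maturation of let-7. PITX1 is a homeobox transcription factor that gives the hindlimb its identity and acts in the pituitary.

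The let-7 sequences are shown because they join Hmga2 and Igf2bp2 to the Lin28 genes measured below. In the RefSeq table (GRCm38.p6) 10 mature microRNAs of the family share the seed, bases 2 to 8 of the microRNA, which stands in capitals here.
mmu-let-7a-5p: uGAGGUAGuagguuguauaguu
The complement of that seed, CTACCTC, occurred 4 times in the longest annotated 3′ UTR of Hmga2 (3014 bases) and once in that of Igf2bp2 (1784 bases), on the transcribed strand of GENCODE M21 transcripts. The matches follow in capitals with 8 bases on each side, the 4 of Hmga2 in order from the stop codon.
Hmga2 match 1: ttcaatttCTACCTCagcatcag
Hmga2 match 2: cctcaataCTACCTCtgaatgct
Hmga2 match 3: gcaaggaaCTACCTCcacacttc
Hmga2 match 4: acacactaCTACCTCttaagtcc
Igf2bp2 match: aataaaagCTACCTCaggtgttt
On GRCm38 (mm10), minus strand, the stretches of 23 bases shown for Hmga2 lie at chr10:120364217-120364239, chr10:120362980-120363002, chr10:120362542-120362564 and chr10:120361684-120361706, and that shown for Igf2bp2 at chr16:22059466-22059488. Of 20627 protein-coding genes with a 3′ UTR of at least 50 bases, 9.18% held at least 1 such match and 0.0582% held 4 or more. Among the 2777 genes whose 3′ UTR was as long as that of Hmga2 or longer, 0.288% held 4 or more. Among the 6192 genes whose 3′ UTR was as long as that of Igf2bp2 or longer, 18.9% held at least 1. Lin28a held 2 matches, Lin28b and Igf2bp1 4 each and Igf2bp3 held 1. No match was found in the annotated 3′ UTRs of Sox9 (2250 bases) or Pitx1 (1018 bases). A match is a string of letters, not a measured site, and microRNAs were not measured. The genes themselves lie at chr11:112782224-112787760 on the plus strand (Sox9), and on the minus strand at chr10:120361275-120476469 (Hmga2), chr16:22059009-22163299 (Igf2bp2) and chr13:55825051-55836192 (Pitx1), all GRCm38.

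The tumour cells numbered 5918 in the parental tumour, 4594 in M, 3268 in EM2, 2849 in EM1, 1939 in EM3 and 769 in Clone E, with 5123447 UMIs summed over the tumour cells of Clone E and 26819615 (EM1) to 85887456 (parental) over those of the others. Clone E stood apart in RNA quality and depth, with a median mitochondrial share of 1.79% of UMIs per tumour cell against 0.251% to 0.548% in the others, and a median of 6390 UMIs per cell against 9650 to 15213. The defining markers of other cell types were low but present in the tumour cells. The 6 macrophage markers summed to 71.7 to 385 CPM (10263 to 19655 in macrophages), the 5 granulocyte markers to 161 to 1136 CPM (112056 to 182657 in granulocytes) and the 7 fibroblast markers to 209 to 366 CPM (71407 to 158027 in fibroblasts). Both immune sums were highest in Clone E, and no marker was at 0. Libraries E and EM3 shared the first 16 bases of 1434 cell barcodes, 16.7% of the smaller library, and EM1 and EM2 shared 906 (13.5%), against 1.15% to 1.91% for every other pair. No full barcode was shared within those pairs. The labels do not say which libraries were captured together. All intervals below are exact 95% Poisson or Clopper-Pearson intervals and cover counting error only. In the absence of replicate tumours no p-value was computed.

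Sox9 was found in the tumour cells of all 6 tumours and differed at most 1.48-fold between them. It stood at 1748 CPM in Clone E (interval 1712 to 1785), 1565 in EM2, 1434 in EM3, 1357 in EM1, 1221 in the parental tumour and 1179 in M (1171 to 1188). No neighbours in that order had overlapping intervals. With 8958 (Clone E) to 104905 (parental) Sox9 UMIs these intervals are narrow. For Sox9 and the genes below, the share of all genes with neighbours so separated is not given here. The highest level was 1.48 times the lowest (1.45 to 1.52). On the log2(CPM + 10) scale its range of 0.56 lay below the median of 0.70 over 5829 genes with at least 50 CPM in some tumour. Of these genes, 67.7% spanned at least as much. The place of Clone E at the top depended on the scaling. EM2 stood highest when every cell was given the same weight and when libraries were scaled by median-of-ratios size factors, while M stayed lowest in both. EM3 stood highest in cells with no UMI of 7 immune and stromal genes, at 1605 CPM against 1598 in the 11 such cells of Clone E.

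Hmga2 had 1 tumour far above the rest. Its level was 976 CPM in EM3 (964 to 987), 610 in EM2, 566 in E (545 to 587), 540 in M (534 to 546), 508 in EM1 and 446 in the parental tumour (442 to 451). Only E and M, neighbours in the order, overlapped. EM3 was 2.19 times the parental tumour (2.15 to 2.22), and 19.5% of the 5829 genes spanned as wide a range. EM3 stayed highest and the parental tumour lowest with equal weight for cells and with size factors. In cells with no UMI of 7 immune and stromal genes EM3 was highest at 838 CPM, while Clone E, with 11 such cells, was lowest at 448 and the parental tumour stood at 477. Clone E, which shares 16-base barcode starts with EM3 more often than any other library does, stood at 566 CPM, and EM3 exceeded it 1.72-fold (1.66 to 1.79).

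Igf2bp2 was highest in EM1, at 337 CPM (330 to 344), and in M, at 332 (327 to 336), whose intervals overlapped. It was 291 CPM in EM3, 268 in EM2 (263 to 272), 261 in the parental tumour (258 to 264) and 227 in Clone E (214 to 240). EM2 and the parental tumour also overlapped. The highest level was 1.49 times the lowest (1.40 to 1.58), a span reached by 69.2% of the genes. The tumours with the most Hmga2, EM3 and EM2, thus stood in the middle of the order in Igf2bp2.

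Pitx1 was nearly absent from Clone E and present in the other 5 tumours. In Clone E 2 UMIs were found in 769 tumour cells, 0.390 CPM (0.0473 to 1.41). The level was 34.4 CPM in EM2 (32.8 to 36.1), 28.4 in M, 23.9 in EM1 (22.1 to 25.9), 21.2 in the parental tumour (20.2 to 22.2) and 12.2 in EM3 (11.0 to 13.6). EM1 and the parental tumour overlapped, and all other neighbours were apart. At the depth of Clone E, the levels of the other tumours would have given 62.7 UMIs (EM3) to 176 UMIs (EM2) in place of 2. EM2 exceeded Clone E 88.2-fold with a counting interval of 24.4 to 729, and EM2 exceeded EM3, the next lowest tumour, 2.81-fold (2.51 to 3.16). Pitx1 reached 50 CPM in no tumour, so it lies outside the genes counted as background here.

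**Figure D1:**
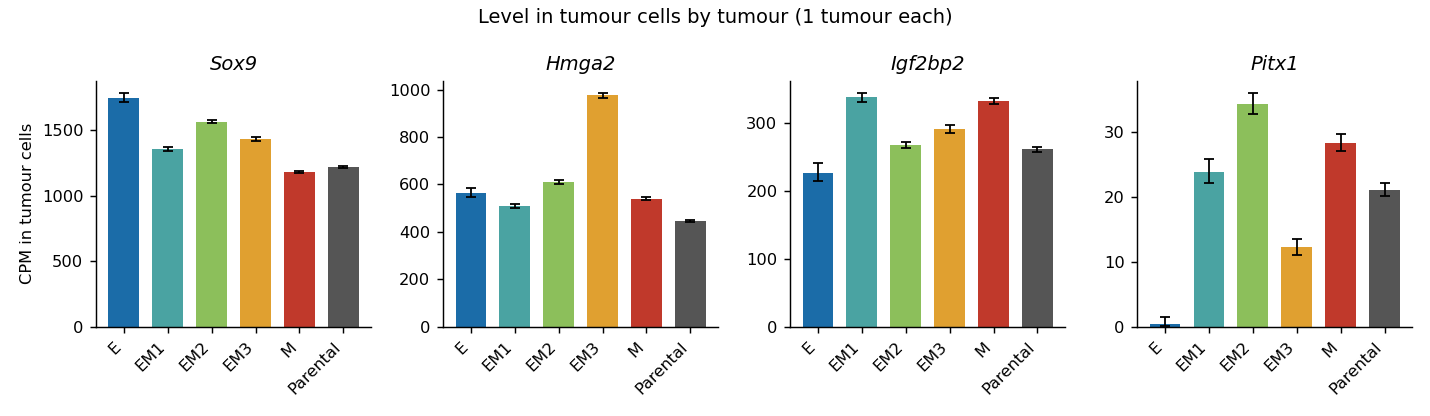
CPM in tumour cells (vertical axis, from 0) for each of the 6 tumours, with exact 95% Poisson intervals as error bars. Sox9 and Igf2bp2 vary less than 1.5-fold, Hmga2 is highest in EM3 (976 CPM), and Pitx1 is at 0.390 CPM in Clone E.

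Clone M was set against Clone E as the log2 ratio of CPM + 10. Among 5535 genes with at least 50 CPM in either tumour, 358 (6.47%) were higher by 2-fold or more in M and 452 (8.17%) lower, with a median of 0.11. Of the 4 genes, 3 were among the genes so counted and none of the 3 passed 2-fold. Sox9 was lower in M by a log2 ratio of -0.56 (-0.60 to -0.53), Igf2bp2 was higher by 0.53 (0.45 to 0.61) and Hmga2 differed by -0.07 (-0.12 to -0.01). Pitx1, outside the counted genes, was higher in M by 1.89 on that scale (1.74 to 1.96), which the added 10 CPM compresses from a ratio of 72.8 (20.1 to 601). Median-of-ratios scaling took its size factors from all genes with a count in each of the 6 tumours, with no minimum level. It moved the median from 0.11 to 0.32, so the counted genes lay further to the side of M. The calls became 630 higher and 300 lower of 5289 genes under this scaling. Under it Sox9 stood at -0.36 and Hmga2 at 0.13, so the direction of Hmga2 between M and E turned, while Igf2bp2 (0.72) and Pitx1 (1.87) kept theirs.

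Each clone was also set against the parental tumour, which all 5 of these comparisons share. Hmga2 was higher in every clone, by log2 ratios of 0.18 in EM1, 0.27 in M, 0.34 in E, 0.44 in EM2 and 1.11 in EM3. Only the value of EM3 passed 2-fold, as did 44 of 4986 genes in that comparison (0.882%, with 1.12% lower). It stayed under 2-fold in cells with no UMI of 7 immune and stromal genes, at 838 CPM in EM3 (56 cells) and 477 in the parental tumour (345 cells). In the other 4 comparisons 6.52% of genes were higher and 2.89% lower in E, 2.63% and 1.1% in EM1, 1.02% and 0.739% in EM2, and 2.33% and 2.07% in M. Sox9 ranged from -0.05 in M to 0.51 in E and Igf2bp2 from -0.19 in E to 0.36 in EM1, and neither passed 2-fold in any clone. Pitx1 was lower in Clone E by -1.58, past 2-fold, as were 154 of the 5337 genes with at least 50 CPM, which leave out Pitx1. It differed by -0.49 in EM3, 0.12 in EM1, 0.30 in M and 0.51 in EM2. Between the libraries that share many barcode starts, EM3 over E gave 0.78 for Hmga2, 1.10 for Pitx1 (its interval, from 0.94 upward, holds 2-fold), 0.35 for Igf2bp2 and -0.28 for Sox9. Of the 5317 genes with at least 50 CPM in either, a set that leaves out Pitx1, 3.82% were higher by 2-fold or more and 6.77% lower. EM2 over EM1 gave 0.39 for Pitx1, 0.26 for Hmga2, 0.20 for Sox9 and -0.32 for Igf2bp2, none past 2-fold, against 1.11% of 5123 genes higher and 1.85% lower.

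The spread of each gene over the cells of a tumour was read next. The Fano factor moves with the level, so each gene is set beside genes of like level and not beside the other 3. Cells were thinned to 1500 UMIs each, which left out 15 to 161 shallower tumour cells per tumour. Sox9 then had a UMI in 67.7% (M) to 75.7% (EM2) of tumour cells, where an even spread of the same mean would give 82.7% to 90.9%. Without thinning the shares were 86.5% (E) to 97.0% (EM2). Its Fano factor, the variance over the mean, which is 1 for an even spread, was 4.09 in Clone E and 2.20 to 2.73 in the other 5. Genes whose mean lay within 1.5 times that of Sox9 had a median of 2.77 in Clone E and 1.48 to 1.71 elsewhere, and 16.3% to 29.3% of them were at least as uneven. In counts that were not thinned, into which the depth of each cell enters, the 10% of cells with the most Sox9 held 44.0% of its UMIs in Clone E and 30.2% to 33.5% in the others. The like share for Igf2bp2 was also highest in Clone E, at 33.6% against 25.0% to 28.3%. That for Hmga2 was highest in the parental tumour, at 34.0% against 33.9% in Clone E. Sox9 was above the median of like genes in all 6 tumours, with its largest Fano factor in Clone E.

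Hmga2 had a UMI in 44.1% (parental) to 70.3% (EM3) of the thinned cells, with 49.5% and 77.5% for an even spread. Its Fano factor was 1.22 in M and 1.36 to 1.65 in the rest, against medians of 1.10 to 1.44 over genes of like level, of which 11.3% (parental) to 46.2% (EM3) were at least as uneven. Igf2bp2 had a UMI in 28.6% (E) to 39.3% (EM1) of cells, where an even spread would give 29.9% and 40.6%, and Fano factors of 1.05 to 1.11. These lay close to the medians of genes of like level, 1.04 to 1.09, and 39.4% to 54.6% of such genes were at least as uneven. Pitx1 had a UMI in 0.0627% of the thinned cells of Clone E and in 1.76% (EM3) to 4.96% (EM2) of those of the others, with Fano factors of 1.01 to 1.02 in these 5. Macrophages, thinned alike, had a Pitx1 UMI in 0.0274% to 0.265% of cells, a range that holds the share in Clone E and lies below that in the other tumours. The gap depends on the class, since in granulocytes deep enough to be thinned the share was 0% to 1.91%, reaching above the 1.76% of EM3. Levels this low could not show an uneven spread at this depth.

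**Figure D2:**
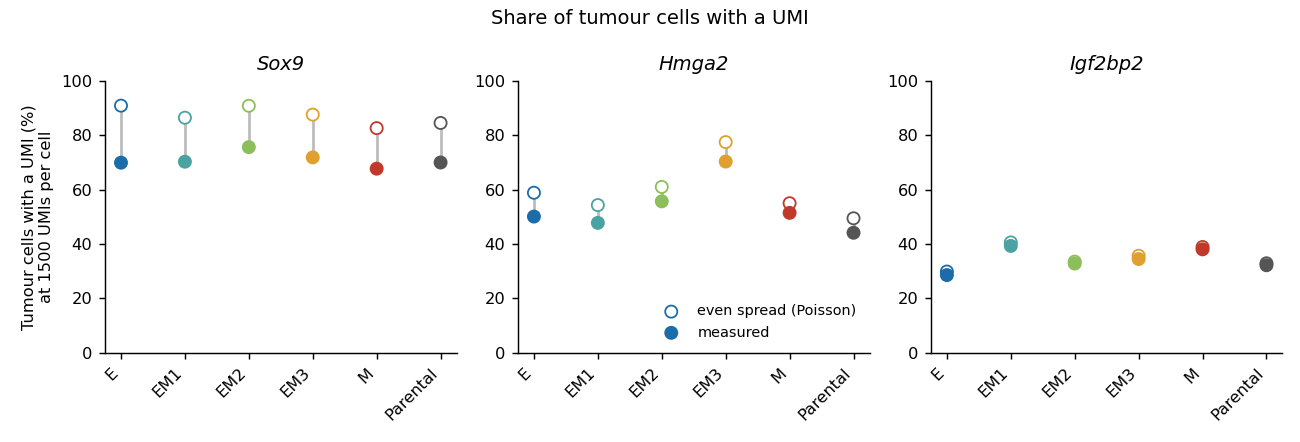
Percent of tumour cells with at least 1 UMI after thinning to 1500 UMIs per cell (filled) and the percent that an even, Poisson spread of the same mean would give (open), for each tumour. In Clone E the values are 69.9% and 90.9% for Sox9 and 28.6% and 29.9% for Igf2bp2, and a gap can grow with the level of a gene.

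Tumour cells were then ordered by the share of their UMIs in 13 epithelial genes, which hold none of the 4, and divided into quartiles within each tumour. These are ranges, not cell types. In Clone E Sox9 rose from 810 CPM (756 to 867) in the lowest quartile through 1040 and 2302 to 2418 (2341 to 2498) in the highest, 2.99-fold (2.77 to 3.22). The corresponding ratio was 1.53 in EM2, 1.40 in the parental tumour, 1.15 in EM1, 1.05 in M (1.03 to 1.07) and 1.00 in EM3 (0.973 to 1.03). Among genes with at least 50 CPM, 0.661% had as high a ratio as Sox9 in Clone E, 1.44% in EM2, 4.01% in the parental tumour and 11.0% in EM1, while in M and EM3 the share was 35.7% and 46.9%. In CPM the lowest quartile of Clone E held less Sox9 than any quartile of another tumour. Its highest held more than any, the highest in another tumour being 1989 CPM in EM2. This top place can depend on the scaling. Over all tumour cells, median-of-ratios size factors put EM2 (1674) above Clone E (1489), and the quartiles were not read under them. With the keratin genes Krt8 and Krt18 left out of the ordering, the ratio was 2.58 in Clone E, 1.49 in the parental tumour, 1.17 in EM3 and 1.12 in EM1 and M, but 1.05 in EM2.

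Hmga2 went the other way. Its level in the highest quartile was 0.569 of that in the lowest in Clone E (0.509 to 0.635), 0.587 in EM1, 0.612 in the parental tumour, 0.688 in EM3 and 0.713 in EM2, but 0.990 in Clone M (0.961 to 1.02). The share of genes with as low a ratio was 0.750% in EM1, 1.07% in the parental tumour, 2.78% in EM2, 3.39% in EM3 and 4.82% in Clone E. In M it was 52.9%. The highest quartile of EM3 still held 806 CPM (786 to 827) of Hmga2, above each quartile of the other 5 tumours, whose highest value was 734 CPM in the second quartile of Clone E (686 to 784). This was lost in cells with no UMI of 7 immune and stromal genes, 56 in EM3. Its highest quartile there held 629 CPM, below the lowest quartiles of EM1 (647), the parental tumour (674) and EM2 (720). Without Krt8 and Krt18 in the ordering the ratio was 0.635 in Clone E, 0.707 in EM1, 0.776 in the parental tumour, 0.826 in EM2, 0.875 in EM3 and 0.994 in M.

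Igf2bp2 was lower in the highest quartile in all 6 tumours, each interval lying below 1, by ratios from 0.665 in Clone E and 0.802 in EM1 to 0.946 in M, with 0.876 to 0.884 in the other 3. As low a ratio was found for 8.56% (EM1) to 42.3% (M) of genes. Without Krt8 and Krt18 in the ordering the interval lay below 1 in 4 of the 6. Pitx1 was higher in the highest quartile of EM2 (1.65, 1.42 to 1.92), EM1 (17.2 and 25.8 CPM, interval of the ratio 1.17 to 1.93) and M (1.16, 1.02 to 1.33), lower in that of the parental tumour (0.809, 0.705 to 0.929), and in EM3 the interval held 1 (1.04, 0.753 to 1.45). Without Krt8 and Krt18 in the ordering the Pitx1 interval in EM1 held 1 (1.05, 0.824 to 1.34), while EM2 (1.61), M (1.27) and the parental tumour (0.690) stayed on their sides. With doublets kept the interval in M held 1 (1.13, 0.998 to 1.29). In cells with no UMI of 7 immune and stromal genes the Pitx1 intervals held 1 in EM1 (0.823 to 2.05) and EM2 (0.843 to 2.10) and the parental ratio turned to 1.15 (0.622 to 2.16). The 2 Pitx1 UMIs of Clone E fell in separate quartiles.

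Other measures moved with the ordering. The macrophage and granulocyte markers summed to 1978 CPM in the lowest quartile of Clone E and 748 in the highest, with median depths of 5032 and 8370.5 UMIs per cell. The same sums were 706 and 291 CPM in the parental tumour, 490 and 137 in EM1, 447 and 216 in EM2, 791 and 543 in M and 633 and 498 in EM3. The part of these in the gradients of Sox9 and Hmga2 was not tested. Restricting the cells to those with at least 3000 UMIs gave ratios in Clone E of 2.85 for Sox9 and 0.539 for Hmga2. Cells with no UMI of 7 immune and stromal genes gave 1.46 for Sox9 and 0.661 for Hmga2 in EM2 (345 cells), 1.70 and 0.509 in the parental tumour (345 cells) and 1.16 and 0.670 in EM1 (1028 cells). In EM3 they left 56 cells, with ratios of 1.41 (1.21 to 1.65) for Sox9, against 1.00 in all its tumour cells, and 0.648 for Hmga2. In M they left 46 cells, with 0.866 (0.612 to 1.21) for Sox9 and 1.13 (0.782 to 1.64) for Hmga2, and in Clone E 11 cells, with 8.15 (3.31 to 26.0) for Sox9 and too few UMIs for a ratio of Hmga2.

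**Figure D3:**
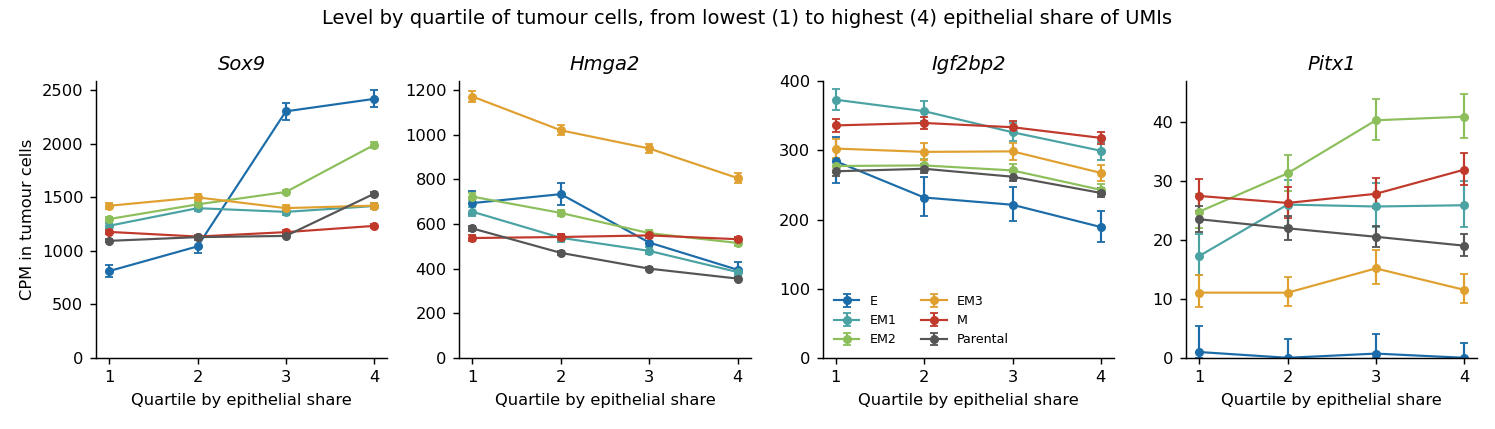
CPM (vertical axis, from 0) in quartiles of tumour cells ordered from the lowest (1) to the highest (4) epithelial share of UMIs, 1 line per tumour with exact 95% Poisson intervals. Sox9 rises in Clone E from 810 to 2418 CPM, Hmga2 declines in 5 tumours and is level in M, and Pitx1 stays near 0 in Clone E.

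The same ordering was also divided into 20 bins, chosen after the quartiles had been seen. The parental tumour, with the most tumour cells, had 295 or 296 cells in a bin. Cdh1 rose from 1.33 CPM in the lowest bin to 375 (355 to 396) in the highest. Sox9 lay between 1034 and 1212 CPM in the first 15 bins, then reached 1319 in bin 16 and 1969 (1923 to 2017) in bin 20. Hmga2 fell from 682 CPM (653 to 712) to 300 (282 to 319), with 438 CPM already in bin 10. Igf2bp2 stood at 263 CPM in the first bin and 193 (179 to 209) in the last. Pitx1 was 26.0 CPM (20.5 to 32.4) in the first bin and 18.6 (14.4 to 23.8) in the last. The parental cells with the most epithelial RNA held Pitx1, while the cells of Clone E stood at 0.390 CPM. Cdh1 also differed between these cells, at 281 CPM in the lowest bin of Clone E and 1383 in its highest. The part of the epithelial state in the level of Pitx1 was not tested. The other tumours had fewer cells in a bin, 38 or 39 in Clone E and up to 230 in M. In Clone E the last bin was not the highest in Sox9. Sox9 was 672 CPM (561 to 798) in bin 1, 1973 in bin 11 and 3564 (3358 to 3780) in bin 18. Bin 20 held 1673 (1529 to 1827), below each of bins 11 to 19. Neighbouring bins also differed widely, with 1921 CPM in bin 17. Single cells of Clone E held up to 116 Sox9 UMIs, and the intervals do not cover such spread between cells. A fall at the end was not tested. In EM2 Sox9 was 1187 CPM in bin 1 and 2424 (2355 to 2494) in bin 20, the highest of its bins. In EM1, EM3 and M the last bin stood at 1315, 1393 and 1279 CPM and was not the highest. Hmga2 was lowest in the last bin in Clone E (280 CPM), EM2 (415) and EM3 (670), as in the parental tumour, while in EM1 bin 19 (284) was below bin 20 (334). In M the last bin was also lowest, at 483 CPM (459 to 508), but its interval overlapped that of bin 1 (501, 474 to 529).

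**Figure D4:**
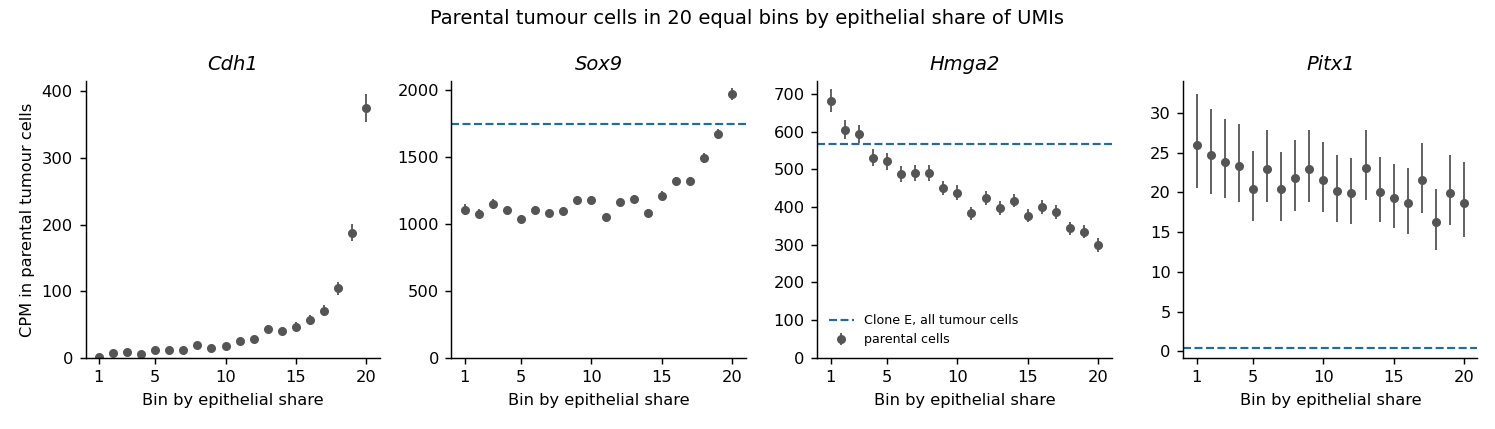
CPM in 20 equal bins of parental tumour cells ordered by epithelial share of UMIs (points, exact 95% Poisson intervals), with the level over all Clone E tumour cells as a dashed line. Sox9 reaches 1969 CPM and Hmga2 declines to 300 CPM in the most epithelial bin, where Pitx1 is at 18.6 CPM against 0.390 in Clone E.

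The same was done with 16 cell division genes. Sox9 was lower in the quartile with the highest share in all 6 tumours, by ratios of 0.823 (parental) to 0.898 (E), and 13.3% (EM3) to 29.7% (E) of genes had as low a ratio. Hmga2 was lower in EM2 (0.758), the parental tumour (0.781), EM3 (0.832) and EM1 (0.862), where 8.54% to 20.6% of genes were as low, while in Clone E the interval held 1 (1.02, 0.918 to 1.14) and in M it was 1.04 (1.01 to 1.07). Igf2bp2 was lower in 5 tumours (0.772 to 0.901, with 6.76% to 29.9% of genes as low) and its interval held 1 in Clone E. Pitx1 was higher in EM1 (1.36, 1.06 to 1.74) and EM2 (1.35, 1.18 to 1.55), and its interval held 1 in EM3, M and the parental tumour. Depth differed between the outer quartiles. The median UMIs per cell were 10655 in the lowest and 17383 in the highest quartile of the parental tumour, 13452 and 20088 in EM2, 11567 and 16678.5 in M, 13519 and 15791.5 in EM3, 8366 and 9619 in EM1 and 5468 and 5769 in Clone E. In Clone E the middle quartiles were deeper than both, at 8001.5 and 6891, and in EM1 and EM3 the second was deepest, at 11226.5 and 16339. The macrophage and granulocyte markers summed to 440 and 184 CPM in EM2 and 438 and 308 CPM in the parental tumour, and the part of depth and of these markers in the ratios was not tested. The lowest quartile of E and of EM1 held no UMI of the list, so its border there was set by the order of tied cells.

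Pairs of the genes in single cells were near independence. At 1500 UMIs per cell the share of cells with both genes, over the share expected from each alone, was 0.953 to 1.07 for all 6 pairs in every tumour where both could be read. Hmga2 and Igf2bp2 lay above the median over all genes in 6 of 6 tumours, at 1.01 (EM3) to 1.07 (E) against medians of 1.00 to 1.01, and 12.4% to 25.5% of genes had as high a ratio with Hmga2. Sox9 and Hmga2 ranged from 0.953 in Clone E to 1.03 in EM1. Differences this small in sparse counts are given as values only.

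Other annotated classes give the background against which tumour-cell levels are read. Macrophages, at median depths of 5028 to 9514.5 UMIs, held Sox9 at 27.3 to 46.3 CPM, 1.81% to 3.79% of the level in the tumour cells of the same library, and 4.91% to 8.14% of them had a Sox9 UMI after thinning. Hmga2 stood there at 10.9 to 26.4 CPM and Igf2bp2 at 8.17 to 20.03 CPM. A Hmga2 UMI was found in 1.72% to 4.73% of the thinned macrophages. Dendritic cells, at median depths of 3653 to 6319 UMIs, held Sox9 at 27.8 to 48.0 CPM. The other classes, shallower or not, were higher. Granulocytes held Sox9 at 123 to 258 CPM at median depths of 778 to 1459.5 UMIs, and T and NK cells at 66.2 to 228 CPM. Fibroblasts, at median depths of 5349 to 12246 UMIs, held Sox9 at 61.6 (EM1) to 323 CPM (parental), 4.54% to 26.4% of the tumour-cell level. Endothelial cells, at 3718 to 8058.5 UMIs, held it at 61.2 to 274 CPM in the 4 tumours with at least 50 such cells. After thinning, 10.4% to 21.2% of fibroblasts and 6.02% to 20.6% of endothelial cells had a Sox9 UMI. In every one of these classes and tumours the 3 genes were below their level in the tumour cells of the same library.

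The keratin gene Krt8, a marker of the tumour cells, was read in the other classes in the same way for comparison. The share of the tumour-cell level that Sox9 reached in macrophages was 0.717 to 0.940 of the share that Krt8 reached, and that of Hmga2 0.768 to 0.969. Both thus lay below Krt8 in 6 of 6 tumours, as they did in granulocytes (0.669 to 0.920 for Sox9, 0.541 to 0.992 for Hmga2). In T and NK cells Sox9 was 0.730 to 1.01 times and Hmga2 0.728 to 1.03 times the share of Krt8, each above it in Clone M only. In B cells Sox9 was 0.536 to 1.22 times it, above it in 1 of 5 tumours, and in dendritic cells Hmga2 was 0.485 to 1.15 times it, above it in 2 of 6. Igf2bp2 lay above Krt8 in macrophages, at 1.49 to 1.94, in T and NK cells, at 1.09 to 1.67, and in fibroblasts, at 1.32 to 3.11, each in 6 of 6 tumours. In endothelial cells it was 1.05 to 3.62, above in 4 of 4. It was 0.877 to 1.51 in granulocytes, above in 5 of 6, 0.571 to 1.77 in B cells, above in 4 of 5, and 0.857 to 1.86 in dendritic cells, above in 4 of 6. In fibroblasts Sox9 was 1.03 to 1.62 times the share of Krt8 in 6 of 6 tumours, and Hmga2 was 0.825 to 1.70 times it, above it in 5 of 6. This depends on the marker. Csf3, also counted among the markers of the tumour cells, reached 6.82% to 29.2% of its tumour-cell level in fibroblasts, against 4.54% to 26.4% for Sox9. Csf3 was not confined to tumour cells, since endothelial cells held it at 999 to 1850 CPM, 50.4% to 114% of its tumour-cell level. In endothelial cells Sox9 was 1.22 to 2.61 times the share of Krt8 in 4 of 4 tumours and Hmga2 0.845 to 3.38 times it, above it in 3 of 4. Both maxima were in Clone M, where endothelial Krt8 was lowest, at 44.4 CPM. These ratios rest on summed UMIs and do not show how many cells held a gene. Pitx1 stood at 0 to 9.33 CPM in these classes. Fibroblasts of the parental tumour held 31 Pitx1 UMIs, 7.93 CPM (5.39 to 11.3). Those of Clone E held 2, which in CPM was 734% of the level in its tumour cells, where 2 UMIs were found as well.

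**Figure D5:**
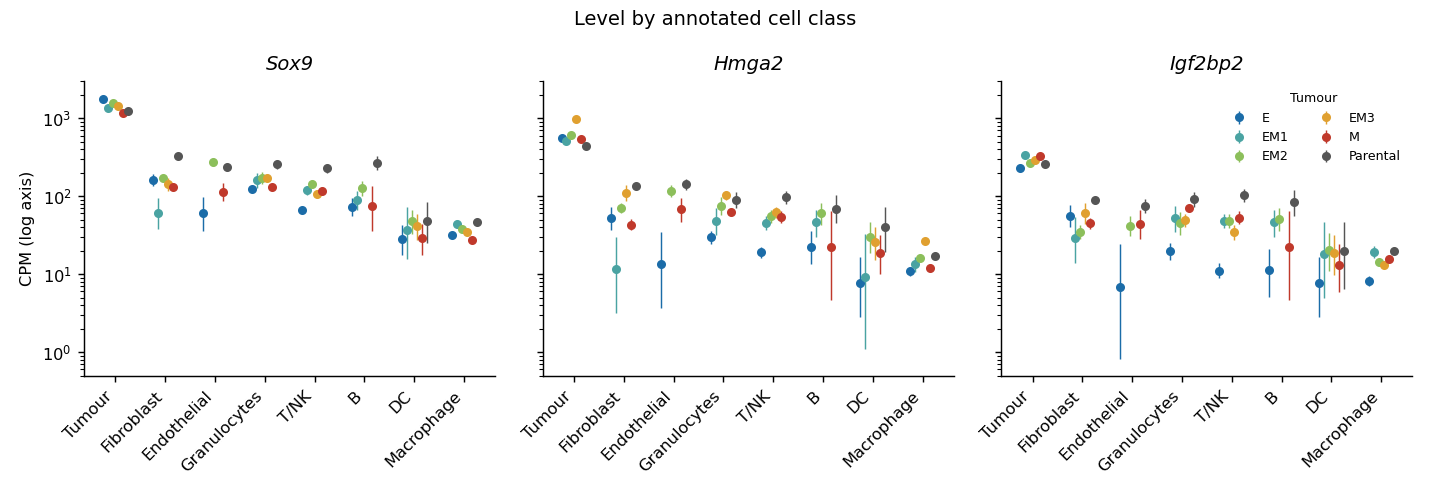
CPM on a log axis by annotated cell class, 1 point per tumour with exact 95% Poisson intervals. Classes with under 50 cells in a tumour are left out. Tumour cells stand above every other class for Sox9, Hmga2 and Igf2bp2, and macrophages hold Sox9 at 27.3 to 46.3 CPM.

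Genes that work with the 4 were read as lists. Of 18 oncofetal partners, 17 had an entry in the counts, and 7 of these were under 1 CPM in all 6 tumours. Lin28a and Lin28b were among them, at no more than 0.390 and 0.781 CPM, as were Igf2bp3, Dlk1, Afp, Gpc3 and Peg10. Igf2bp1, the fetal relative of Igf2bp2, reached 4.10 CPM in EM1 and was 0.222 to 2.93 elsewhere, and was named after its values had been seen. Among the 4 list genes with at least 50 CPM in M or E, Igf1r, the receptor for IGF1 and IGF2, was higher in M by 2-fold or more and none was lower (median log2 ratio 0.35). Over all 5535 genes 6.47% were higher and 8.17% lower, with a median of 0.11. Under median-of-ratios scaling 11.9% of 5289 genes were higher and 5.67% lower, with a median of 0.32, and the list was not read under that scaling. Igf1r stood at 135 CPM in E, 186 in EM2, 200 in the parental tumour, 226 in EM1, 253 in EM3 and 320 in M. The growth factor gene Igf2, named after its values had been seen, was at 38.8 CPM in M (37.3 to 40.3) and 14.1 in EM1 (12.7 to 15.6), and at most 0.582 CPM in the other 4 tumours. M and EM1 were also the tumours with the most Igf2bp2, which varied 1.49-fold between its highest and lowest tumour. A link between the levels of these genes was not tested.

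Of 12 other SOX factors only Sox4, a progenitor factor named after its values had been seen, reached 50 CPM, at 465 (EM3) to 843 CPM (EM1), with a log2 ratio of 0.15 in M over E. Sox5, a partner of SOX9 in cartilage, was at 29.1 to 33.6 CPM in 5 tumours and at 0.224 CPM (0.0821 to 0.487) in EM1, and was named after its values had been seen. Of 14 cartilage genes under SOX9 none reached 50 CPM and 7 were under 1 CPM in every tumour. Acan, the cartilage proteoglycan, was at most 0.390 CPM and Col2a1, the main cartilage collagen, named after its values had been seen, at most 1.21 CPM. The highest of the list, Col11a2, named after its values had been seen, was at 43.1 CPM in Clone E and 5.50 to 16.8 CPM elsewhere. Of 4 other high mobility group genes with enough counts none passed 2-fold between M and E (median 0.23).

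Against the same 6.47% of genes higher and 8.17% lower stand the remaining lists. In the mammary lineage list 3 of 5 genes were lower by 2-fold or more in M and none was higher (median -1.66). The basal keratin gene Krt14 fell from 502 CPM in E to 1.82 in M, Krt17 from 107 to 1.63, and the luminal factor gene Foxa1 from 84.1 to 19.9. Among 9 TGF-beta response genes only Tgfbi passed, lower in M (50.9 and 9.50 CPM), with a list median of 0.36. Of 9 Hippo targets Ccn2 and Crim1 were higher in M (75.5 and 235 CPM, 64.0 and 151 CPM) and F3 was lower (102 and 7.88 CPM), with a median of 0.06. Of 4 Wnt targets Notum, a secreted Wnt inhibitor, was lower (171 and 16.6 CPM) and none was higher (median 0.18). Of 7 cell division genes 5 were higher in M and none was lower (median 1.11), with Ube2c at 25.2 CPM in E and 97.7 in M. Of 13 epithelial genes 12 were lower in M (median -4.74), and of 8 mesenchymal genes 6 were higher and 1 lower (median 1.15). Against the parental tumour, 0 of 8 cell division genes passed 2-fold in M, and of 8 mesenchymal genes 1 was higher and 2 lower. Over all genes 2.33% were higher there and 2.07% lower. In E 4 of 6 cell division and 3 of 8 mesenchymal genes were lower than in the parental tumour and 0 higher, against 2.89% and 6.52% of all genes.

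The genes most like each of the 4 across the tumours were taken by Pearson's r of log2(CPM + 10) over the 6 tumours, among 1460 genes that spanned at least 2-fold. With 6 points many genes align, so the values are a description. Sox9 was followed most closely by Slc44a1 (0.987), a choline transporter gene, Zfp827 (0.978) and Dock6 (0.954). Hmga2 was followed by Npnt (0.961), which encodes the matrix protein nephronectin, Camk2d (0.926) and Sfrp1 (0.912), a secreted Wnt inhibitor. Npnt stood at 800 CPM in EM3 and 240 to 444 CPM in the others. Igf2bp2 was followed by Scara3 (0.998), Btg3 (0.992) and Tspan9 (0.991), and Pitx1 by Cox7a2 (0.998), Adamts8 (0.985) and Ranbp1 (0.981). An r of 0.9 or more was reached by 3 genes for Hmga2, 35 for Sox9, 37 for Pitx1 and 51 for Igf2bp2.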

How the data were processed

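Single-cell RNA sequencing libraries of whole dissociated tumours (Total libraries) were used, 1 for each of 6 tumours. The 6 CD45-enriched libraries were not used here. The authors deposited raw counts of UMIs per gene and cell, and, per the file headers, a table per library with UMIs per cell, the percent of mitochondrial UMIs and a cell class (Annotation). Per the submitters' processing notes, Cell Ranger and mm10 were used. The labels' protocols name fixation of single cells and 3′ reagents. Filters on cells are not given in the sources used here.

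From the counts, the Scrublet method was applied library by library to find doublets (2 simulated pairs per cell, expected share 6%, 2000 variable genes, 30 components, a common score limit of 0.265, the median of the 6 valleys between modes). This left out 2.77% of cells. UMIs of tumour cells were summed per tumour and given as CPM with exact Poisson intervals. Ratios were taken on log2(CPM + 10), and 2-fold on that scale was counted among genes with at least 50 CPM in 1 of both tumours. Shares of cells and Fano factors were computed at 1500 UMIs per cell by exact hypergeometric formulas, tested on simulated data. With 1 tumour per group no test was made. Python 3.11.15, NumPy 2.4.6, SciPy 1.17.1 and pandas 2.3.3 were used.

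The genes and gene lists were chosen with earlier results of these data known. Genes named from lists were those with at least 50 CPM in 1 tumour and a 2-fold difference between M and E, at most 4 per list by size, besides those named as undetected and 6 others (Igf2, Igf2bp1, Sox4, Sox5, Col2a1 and Col11a2), named after their values had been seen. Alternatives were doublets kept, a pseudocount of 1 CPM, equal weight for cells, median-of-ratios size factors, cells with at least 3000 UMIs, cells free of Ptprc, Lyz2, S100a8, S100a9, Col1a1, Col3a1 and Pecam1, other minimums of CPM and thinning to 3000 UMIs. Sequences came from RefSeq tables and GENCODE M21 (GRCm38). Promoters and proteins were not used. The list of limb and head patterning genes is not reported here.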

Additional observations from a re-analysis of the deposited data

How the results depend on the processing

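Each group was 1 tumour, so nothing separates a clone from its tumour, and intervals cover counting error only. Clone E, with 5123447 tumour-cell UMIs, limits every comparison with it. No paired analysis was possible because each group held a single tumour and the labels number no replicates. Under doublets kept and under at least 3000 UMIs per cell all 4 ratios of M over E, both gene counts and the highest and lowest tumour of all 4 genes stayed within the reported intervals or within 1.5 times. Equal weight for cells moved Sox9 to -0.41 and Hmga2 to -0.17. Median-of-ratios scaling moved Sox9 to -0.36, Hmga2 to 0.13 and Igf2bp2 to 0.72 and gave 630 genes higher and 300 lower. The median of the counted genes was 0.32 under it, against 0.11 as reported. Cells free of 7 immune and stromal genes (11 left in Clone E and 46 in M) moved Hmga2 to 0.25, Igf2bp2 to 1.01 and Pitx1 to 1.49, gave 1264 genes higher and 1061 lower, kept the highest and lowest tumour for 2 of 4 genes (Sox9 became highest in EM3 and Hmga2 lowest in Clone E), and left the interval of the Igf2bp2 ratio between the outer epithelial quartiles below 1 in 2 of 6 tumours. A pseudocount of 1 CPM gave 4.40 for Pitx1. A minimum of 10 CPM and no minimum each gave 778 genes lower. Where no value shows the cause, the cause was not tested. At 3000 UMIs per cell all 4 genes kept their highest and lowest tumour in the share of cells with a UMI. The alternatives for the quartiles were added after seeing the data, and under them the interval of that ratio lay above 1 for Sox9 in 5 or 6 of 6 tumours and below 1 for Hmga2 in 4 or 5. The Sox9 counts take in ratios near 1, such as 1.05 in EM2 without Krt8 and Krt18. In M, at 1.05 in the main ordering, 35.7% of genes had as high a ratio. Such shares of genes were read for the main ordering only.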
